A study of Mus musculus with 43 samples.

Results

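In the library of dividing crypt cells that were not irradiated, 517 of 1846 kept cells held at least 20 Olfm4 UMIs (unique molecular identifiers, 1 per captured transcript) per 10,000 UMIs of the cell. They made up 28.0% of the library (exact 95% interval 26.0 to 30.1%) and are called Olfm4-high cells. They were set against the 787 cells of the same library with fewer than 2 Olfm4 UMIs per 10,000 (42.6%, Olfm4-low cells), and 542 cells (29.4%) lay between these limits. The 7 single-cell libraries of the series kept 15587 cells in all. Olfm4 chose the cells, so its own level is a description: the median was 47.7 per 10,000 in Olfm4-high cells (20.3 to 175) and 0.715 in Olfm4-low cells. No Olfm4 UMI was seen in 278 cells (15.1% of the library). Summed over cells, Olfm4 stood at 4967 CPM (the summed UMIs of a gene scaled to a common total for each class) against 79.9 CPM.

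Olfm4 encodes olfactomedin 4, a secreted glycoprotein abundant in the crypt base columnar stem cells of the mouse small intestine. These cells sit between Paneth cells at the crypt bottom, where Wnt and Notch signals keep them undifferentiated. Their daughters divide several times as transit-amplifying cells while they move up the crypt, and then leave the cell cycle as absorptive enterocytes or as goblet, Paneth, enteroendocrine or tuft cells. A sample of dividing crypt cells therefore holds stem cells, transit-amplifying cells and the youngest progenitors of enterocytes, and Olfm4 falls along that path.

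The crypts came from the proximal part of the small intestine of Mki67tm1.1Cle/J mice, in which a red fluorescent protein is fused to the proliferation antigen Ki67, and Ki67-RFP+ DAPI- cells (RFP-positive and living) were sorted, 5500 per the labels. Ki67 was thus used to choose the cells in every crypt library. The other 2 crypt libraries came from mice given 12 Gy to the whole body 56 h earlier, to which the non-irradiated sample was a littermate control, and their crypts went through a wider strainer (100 µm against 70 µm per the labels). In addition, 4 libraries came from unsorted wild-type C57BL/6 organoids, irradiated with 4 Gy on day 4 and collected on day 8 after vehicle (0 h) or 6, 15 or 24 h of TGFB1 at 1 ng/mL. The labels give neither the age and number of the mice behind a crypt library nor whether the organoid libraries shared a culture.

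The non-irradiated library held 2.58e+07 UMIs in kept cells. Median depth was close between the classes, with 12486 UMIs in Olfm4-high cells, 10485 in the cells between and 12853 in Olfm4-low cells, and the median share of mitochondrial (mt-) UMIs was 2.16, 2.02 and 1.79%. Scrublet called 8 of the 1846 cells doublets, 5 of them Olfm4-high. So few calls do not show that doublets are absent, and none were removed. At most 1 cell barcode was shared between any pair of libraries. Of the epithelial markers, Epcam stood at 1275 CPM in Olfm4-high and 1604 CPM in Olfm4-low cells. Immune and stromal markers were near 0 in Olfm4-high cells (17 immune genes summed to 3.59 CPM, 11 stromal genes to 9.14 CPM, and Cd3e, Cd52, Col1a1, Col3a1 and Dcn had no UMI). In Olfm4-low cells the immune list summed to 75.1 CPM, of which Gzma, a protease of cytotoxic lymphocytes, made up most, and 5 cells held 99.4% of the 511 Gzma UMIs.

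The plot of Olfm4 per cell shows no empty stretch between the classes. At the upper limit, the 69 cells with 20 to 25 Olfm4 UMIs per 10,000 had a summed stem list of 1995 CPM, and the 66 cells with 15 to 20 had 1754 CPM. At the lower limit values were further apart, with Fabp1 at 1803 CPM and Slc12a2 at 73.3 CPM in the 130 cells with 1.5 to 2, and at 1084 and 133 CPM in the 74 cells with 2 to 2.5. The classes are therefore ranges of Olfm4, and cells lie on both sides of each limit. The cells were not spread evenly. Bins of 5 to 8 and 8 to 12 held 89 and 77 cells, and the wider bins of 30 to 50 and 50 to 80 held 174 and 162. Whether the cells form a continuum or groups that overlap through counting error was not tested.

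**Figure D1:**
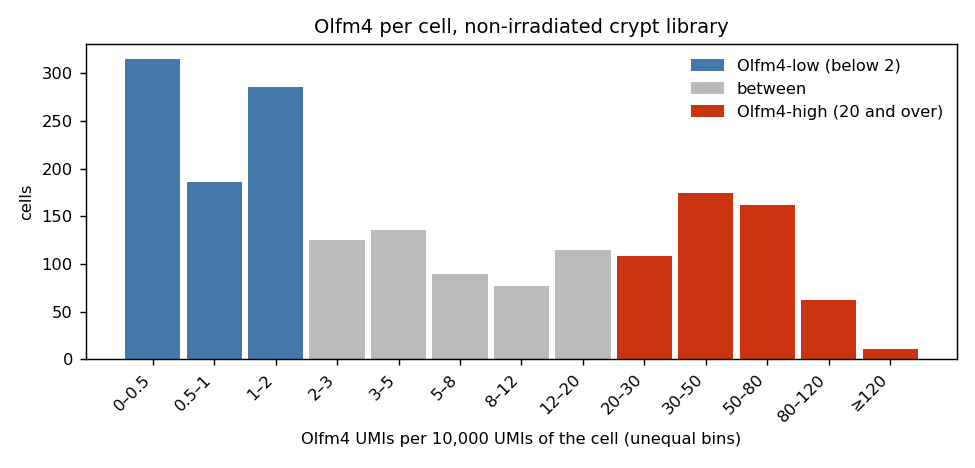
Number of cells (y axis) by Olfm4 UMIs per 10,000 UMIs of the cell (x axis, bins of unequal width) in the non-irradiated crypt library, coloured by class. The 517 Olfm4-high cells and the 787 Olfm4-low cells are joined by 542 cells between the limits.

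Across the genes, the Olfm4-high cells carried more transcript of stem cell, DNA replication and ribosome-making genes, about the same of mitotic genes, and less of enterocyte genes. Of 6516 genes with at least 20 CPM in at least 1 of the classes (Olfm4 left out), 328 were at least 2-fold higher in Olfm4-high cells (5.03%) and 567 at least 2-fold lower (8.7%). Differences of at least 4-fold were counted for 52 higher and 165 lower genes. This is 1 library, so these folds have no replicate check and no test, and intervals cover counting error only. Every gene of these cells also stands in the contrast that Olfm4 drew, and a gene that passes the filter only through the class where it is high had to differ. Fewer cells with a transcript and fewer transcripts per cell cannot be told apart in these sums. With mt- and ribosomal protein genes left out of the total, 572 genes were higher and 518 lower of 7591, so that 52.5% of the genes past 2-fold were higher in place of 36.6%, and the median log2 ratio of all genes moved from −0.04 to 0.13. Directions of small differences therefore rest on the scaling.

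**Figure D2:**
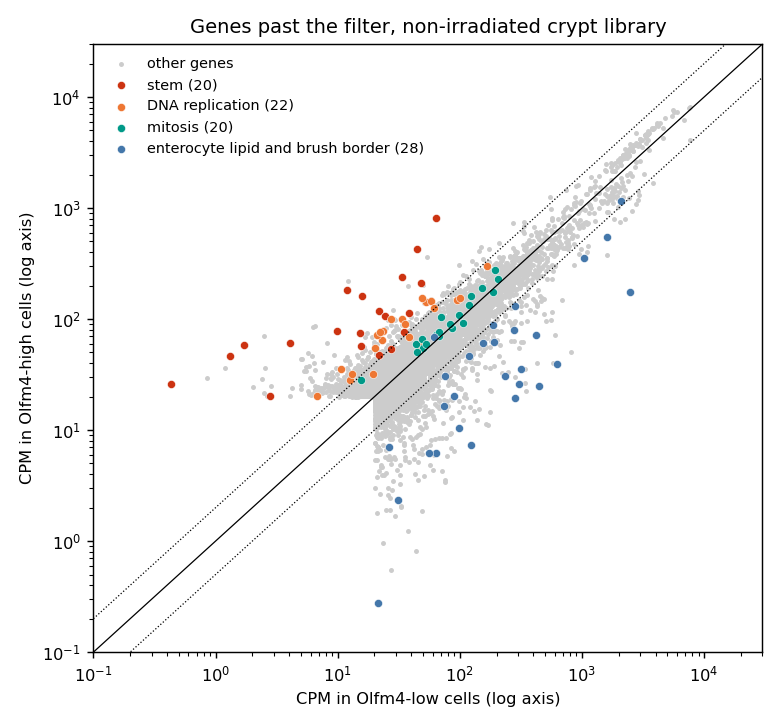
CPM in Olfm4-low cells (x, log axis) against CPM in Olfm4-high cells (y, log axis), 1 point per gene past the filter, non-irradiated crypt library. The solid line marks equal levels and the dotted lines 2-fold; 19 of 20 stem genes lie above the upper dotted line and all 20 mitosis genes lie between the dotted lines.

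Stem cell genes came first among the higher genes. Of 25 listed genes, 20 passed the filter and 19 of these were at least 2-fold higher (background 5.03%), with a median log2 ratio of 2.84 beside −0.04 for all genes. Their sum was 3025 CPM in Olfm4-high and 453 CPM in Olfm4-low cells. Lgr5, the R-spondin receptor that marks crypt base columnar cells, stood at 46.9 CPM (42.0 to 52.1) against 1.32 CPM (0.744 to 2.16). Ascl2, a Wnt-driven transcription factor of stem cell fate, stood at 57.8 against 1.72 CPM. Slc12a2, the Na-K-Cl cotransporter of crypt cells, was abundant in both classes at 818 (797 to 839) against 63.8 CPM (59.3 to 68.5). Smoc2, a secreted matricellular protein of crypt stem cells, was less steep at 213 against 47.9 CPM. The gene that missed 2-fold was Ephb2, a receptor that positions cells along the crypt, at 53.7 against 27.5 CPM. Genes such as Lgr5, Ascl2, Msi1, Cd44 and Axin2 passed the filter through Olfm4-high cells alone. Their direction was fixed by the filter, so the count beside 5.03% is a description. Slc12a2, Smoc2 and Ephb2 passed in both classes.

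Wnt feedback genes differed to unlike degrees. Axin2, a scaffold of the beta-catenin destruction complex and a standard Wnt target, stood at 162 against 15.7 CPM. Rnf43, a ubiquitin ligase that removes Wnt receptors, stood at 57.4 against 15.6 CPM, and its relative Znrf3 at 15.8 against 6.66 CPM, under the filter. Cd44, a hyaluronan receptor and Wnt target, stood at 78.1 against 9.78 CPM. Sox9, a transcription factor of the crypt base, differed less, at 112 against 38.6 CPM. Lrig1, a brake on ErbB receptors, and Prom1, a membrane glycoprotein, were among the flattest of the list, with log2 ratios of 1.14 and 1.13. The listed markers of a slow-cycling reserve state were unlike each other: Hopx stood at 99.8 against 28.7 CPM, while Bmi1 (17.2 against 10.9 CPM) and Tert (1.92 against 3.00 CPM) did not pass the filter.

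The 15 genes with the largest ratio, named by rule, hold 6 of the listed stem genes (Msi1, Lgr5, Ascl2, Gkn3, Igfbp4 and Slc12a2). Msi1, an RNA-binding protein of stem and progenitor cells, led with 26.0 against 0.429 CPM (190 against 5 UMIs). Sfrp5, a secreted frizzled-related Wnt inhibitor, stood at 70.5 against 2.49 CPM. Ifitm3, an interferon-induced membrane protein, stood at 218 against 12.1 CPM. Gkn3, a gastrokine, stood at 181 against 11.8 CPM. Soat1, which esterifies cholesterol, stood at 84.7 against 6.27 CPM, and Agr3, a protein disulfide isomerase relative, at 86.5 against 6.52 CPM. The others were Prelp, Rgcc, Sorbs2, Slco3a1 and Nav1, with log2 ratios of 3.58 (Nav1 and Slco3a1) to 5.09 (Prelp). Of the 15, only Slc12a2 passed the filter in both classes.

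The 15 genes with the smallest ratio, named by the same rule, hold enterocyte genes and genes of lymphocytes. Slc9a3, the sodium-hydrogen exchanger of the brush border, stood at 0.959 against 23.6 CPM. St3gal4, a sialyltransferase, was the most abundant of them in Olfm4-low cells, at 50.0 against 813 CPM. Mep1b, a meprin peptidase, stood at 4.25 against 71.6 CPM, and Slc51b, a subunit of the bile acid exporter, at 2.06 against 33.2 CPM. Reg3a, an antimicrobial lectin, stood at 3.56 against 75.3 CPM. Gzma (0.822 against 43.9 CPM) and Ccl5, a chemokine of lymphocytes (0.548 against 27.5 CPM), were the genes of lymphocytes, and 5 cells held nearly all Gzma UMIs. The others were Lct, Bcl2l15, Cdkn2b, Sis, Nat8, Krt20, Gsdmc2 and Rbp2. Of the 15, only Sis, St3gal4 and Rbp2 passed the filter in both classes.

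Lgr5 was seen in a minority of the Olfm4-high cells. A Lgr5 UMI was found in 34.6% of them, in 2.95% of the cells between and in 11 of 787 Olfm4-low cells, and after each cell was thinned to 2000 UMIs in 9.86, 0.738 and 0.127%. The share in Olfm4-low cells, which stand in for cells that should lack the gene, is the background, at median depths of 12486 and 12853 UMIs for high and low cells. Ascl2 was found in 46.0, 8.30 and 2.54% of the cells (11.0, 1.66 and 0.635% thinned). Slc12a2 was found in 98.3, 79.5 and 47.8% (77.4, 38.0 and 11.8% thinned). Fabp1, an enterocyte gene, ran the other way with 70.2, 82.1 and 93.8% (25.3, 47.6 and 74.6% thinned), so most Olfm4-high cells held at least 1 Fabp1 UMI. Defa24, a Paneth cell defensin that the other classes should lack, was found in 96.7, 94.5 and 95.9% of the cells (58.0, 53.7 and 52.5% thinned). That is a like share in every class, so a UMI of an abundant transcript does not by itself show expression in the cell. Whether the Fabp1 UMIs of Olfm4-high cells were made in those cells was not tested.

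The Olfm4-high cells with a Lgr5 UMI were deeper than those without (median 14253 against 11478 UMIs, 179 and 338 cells). They held more Olfm4 (5973 against 4333 CPM), more Ascl2 (75.1 against 46.9 CPM), more Smoc2 (251 against 189 CPM) and more Axin2 (193 against 143 CPM). The intervals of these values do not overlap, but they cover counting error only and leave out the spread between cells. Fabp1 was also higher in the cells with a Lgr5 UMI, at 201 (185 to 218) against 156 CPM (145 to 168). Both groups stood far above the Olfm4-low cells in Ascl2 (1.72 CPM) and Axin2 (15.7 CPM).

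Cell by cell, the stem list was the clearest separator. Its median was 29.6 UMIs per 10,000 in Olfm4-high cells, 10.7 in the cells between and 3.80 in Olfm4-low cells, and 515 of 517 Olfm4-high cells lay above the 90th percentile of Olfm4-low cells. In the enterocyte lipid list, 3 of the 517 lay above the median of Olfm4-low cells. Olfm4-high cells still differed among themselves, since the stem list ran from 17.1 at the first decile to 48.1 at the last.

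Between the classes, the genes of DNA replication differed more than those of mitosis. Of 24 genes of DNA replication, 22 passed the filter and 16 were at least 2-fold higher in Olfm4-high cells (background 5.03%), with a median log2 ratio of 1.38 and a sum of 2112 against 957 CPM. Mcm6, a subunit of the replicative helicase, stood at 153 (144 to 162) against 49.3 CPM (45.3 to 53.5), and the other Mcm2 to Mcm7 subunits were 2.49 to 3.44 times higher. Hells, a chromatin remodeller, stood at 101 against 27.5 CPM, and Cdt1, which licenses origins, at 77.6 against 23.4 CPM. Pcna, the sliding clamp of DNA polymerase, was less apart at 298 against 167 CPM. Rrm2, the regulated subunit of ribonucleotide reductase, was nearest to equal, at 57.0 (51.7 to 62.8) against 47.5 CPM (43.6 to 51.6).

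None of the 20 mitosis genes reached 2-fold in either direction (background 5.03% and 8.7%). Their median log2 ratio was 0.17 and their sum 2184 against 1881 CPM, a log2 ratio of 0.22 that was 0.36 with mt- and ribosomal protein genes left out of the total. Ccnb1, a mitotic cyclin, stood at 83.7 (77.2 to 90.6) against 86.5 CPM (81.2 to 92.0). Cdc20, an activator of the anaphase-promoting complex, stood at 92.5 against 106 CPM. Bub1, a spindle checkpoint kinase, had the largest ratio of the list, at 28.4 against 15.5 CPM. Mki67, used in the sort, stood at 190 against 152 CPM. With Olfm4-low cells limited to those without an Olfm4 UMI, the log2 ratio of the list sum was 0.53. Cells differed more than the sums: the median cell held 15.2 mitosis list UMIs per 10,000 in the Olfm4-high class and 5.93 in the Olfm4-low class, while the upper quartiles were 34.2 and 33.6.

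The promoters of these cell division lists are shown because the lists differ in these cells. Promoter windows of 300 bases around the annotated start were taken from RefSeq (GRCm38.p6) and searched on both strands. A listed gene counted if any of its windows matched, while the shares of all promoters count single windows. These units differ, which can favour the lists. Letters like an E2F site (TTTCCCGC or TTTGGCGC or TTTCGCGC or TTTGCCGC) were found in 8 of 21 matched DNA replication genes (Mcm3, Mcm5, Mcm6, Mcm7, Cdc6, Cdt1, Uhrf1 and Hells), in 1 of 17 mitosis genes and in 2.26% of all 32851 promoters. The letters of the cell cycle homology region (CHR, TTTGAA) were found in 12 of 17 mitosis genes, in 2 of 21 DNA replication genes and in 17.9% of all promoters. CCAAT was found in 15 of 17 mitosis genes, 11 of 21 DNA replication genes and 37.4% of all promoters. The helicase subunits Mcm6 and Mcm5 and the mitotic genes Ccnb2 and Cdc20 are printed 5′ to 3′ on the gene's strand, with the E2F letters (Mcm6, Mcm5) or the CHR letters (Ccnb2, Cdc20) in capitals.
Mcm6 (chr1:128359656-128359955, minus strand): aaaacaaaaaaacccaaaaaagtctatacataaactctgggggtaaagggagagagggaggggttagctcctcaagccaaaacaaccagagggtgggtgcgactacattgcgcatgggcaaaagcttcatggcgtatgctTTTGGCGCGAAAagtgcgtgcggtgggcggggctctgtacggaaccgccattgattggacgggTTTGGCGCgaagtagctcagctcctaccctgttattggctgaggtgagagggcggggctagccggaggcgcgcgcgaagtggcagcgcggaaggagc
Mcm5 (chr8:75109259-75109558, plus strand): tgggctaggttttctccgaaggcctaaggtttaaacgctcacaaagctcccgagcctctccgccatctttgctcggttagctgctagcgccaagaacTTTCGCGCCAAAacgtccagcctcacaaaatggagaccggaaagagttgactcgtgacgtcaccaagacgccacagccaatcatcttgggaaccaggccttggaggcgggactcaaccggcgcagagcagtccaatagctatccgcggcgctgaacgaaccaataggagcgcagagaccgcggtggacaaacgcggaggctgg
Ccnb2 (chr9:70421505-70421804, minus strand): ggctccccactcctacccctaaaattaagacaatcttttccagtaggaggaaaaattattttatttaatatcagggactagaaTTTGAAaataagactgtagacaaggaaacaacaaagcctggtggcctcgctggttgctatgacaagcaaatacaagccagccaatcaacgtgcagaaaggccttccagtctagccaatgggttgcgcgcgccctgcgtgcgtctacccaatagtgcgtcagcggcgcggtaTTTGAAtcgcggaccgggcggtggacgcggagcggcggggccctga
Cdc20 (chr4:118437294-118437593, minus strand): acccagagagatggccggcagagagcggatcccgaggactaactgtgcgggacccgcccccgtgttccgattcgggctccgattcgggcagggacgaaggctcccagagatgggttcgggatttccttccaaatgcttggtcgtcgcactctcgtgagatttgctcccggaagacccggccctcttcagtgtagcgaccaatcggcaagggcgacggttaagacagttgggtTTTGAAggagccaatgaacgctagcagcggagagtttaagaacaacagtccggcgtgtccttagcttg
Such a match is a description of letters and shows no binding. The other letters searched were ATCAAAG (TCF/LEF), found in 2 of 18 matched stem genes (Tnfrsf19 and Sp5) and 3.73% of all promoters, CTTTGAA or CTTTGAT or CTTTGTT or CTTTGTA (looser TCF/LEF, 2 of 18 and 16.9%), CAAAGTCC (HNF4, 0 of 18 and 1.42%), CAAAGT (the shorter HNF4 letters, 3 of 18 and 14.4%), TTTATGG or TTTATTG (CDX, 0 of 18 and 7.20%) and CACGTG (E-box, 2 of 18 and 7.15%). CTTTGAT is ATCAAAG read on the other strand, CTTTGAA holds TTTGAA and CAAAGTCC holds CAAAGT, so these matches are not separate. Outside the stem list, the CDX letters were found in 3 of 9 enterocyte lipid genes (Fabp1, Fabp2 and Apoc2), and CAAAGT in 4 of 9 enterocyte lipid and 7 of 12 detoxifying genes. CAAAGTCC was found in 1 of 9 enterocyte lipid, 2 of 18 brush border and 2 of 12 detoxifying genes. The CHR letters were found in 2 of 9, 2 of 18 and 5 of 12 genes of these lists. The E2F letters were also found in 3 of 8 growth genes (37.5%), next to 38.1% of the DNA replication genes. The promoter of Olfm4, the gene that chose the cells, is shown for reference; it held none of the E2F, CHR and TCF/LEF (ATCAAAG) letters and so has no capitals.
Olfm4 (chr14:80000052-80000351, plus strand): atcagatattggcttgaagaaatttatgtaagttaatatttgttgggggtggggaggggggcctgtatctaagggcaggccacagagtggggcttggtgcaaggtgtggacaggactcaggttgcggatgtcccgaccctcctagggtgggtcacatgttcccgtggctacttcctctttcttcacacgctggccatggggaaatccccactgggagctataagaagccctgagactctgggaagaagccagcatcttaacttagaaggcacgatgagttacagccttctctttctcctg

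Genes of growth and ribosome production also stood higher in Olfm4-high cells. Of 12 listed, 6 were at least 2-fold higher and none lower (background 5.03% and 8.7%), with a median log2 ratio of 1.01. Myc, a transcription factor and Wnt target that drives growth, stood at 68.5 (62.7 to 74.8) against 16.6 CPM (14.4 to 19.2). It passed the filter through Olfm4-high cells alone. Npm1, a nucleolar chaperone, stood at 1255 against 542 CPM, and Ncl, nucleolin, at 685 against 333 CPM. Odc1, the first enzyme of polyamine synthesis, was the exception at 235 against 270 CPM. The 81 ribosomal protein genes past the filter each differed by less than 2-fold but summed to 287300 against 216180 CPM, 1.33 times higher. Nuclear genes of oxidative phosphorylation summed to 58879 against 76082 CPM, 1.29 times lower, with 76 of 84 below a log2 ratio of 0. Both sums take a large share of the total and move with the scaling.

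Of 9 listed regulators of G1 and cell cycle exit past the filter, 2 were at least 2-fold lower and none higher (background 8.7% and 5.03%). The list also holds the D-type cyclins, which are not exit genes. Its sum, 1019 against 931 CPM, includes them and is no measure of exit. Cdkn2b, an inhibitor of the cyclin D kinases, stood at 3.43 (2.22 to 5.06) against 76.0 CPM (71.1 to 81.2). It passed the filter through Olfm4-low cells alone. Cdkn1a, the p21 inhibitor, stood at 24.1 against 96.9 CPM. The other 7 stayed within 2-fold. Among them Ccnd2, a D-type cyclin, stood at 570 against 379 CPM, and Ccnd1 at 149 against 85.1 CPM. Cdkn1b stood at 47.6 against 39.7 CPM.

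Enterocyte genes were the main group on the lower side. All 12 of the 13 listed lipid genes that passed the filter were at least 2-fold lower (background 8.7%), with a median log2 ratio of −2.35 and a sum of 1140 against 6451 CPM. Fabp1, the liver-type fatty acid-binding protein, stood at 174 (164 to 183) against 2470 CPM (2442 to 2499). Rbp2, the cellular retinol-binding protein of enterocytes, stood at 39.6 against 621 CPM, and Apoa1, an apolipoprotein, at 25.8 against 307 CPM. Acsl5, an acyl-CoA synthetase, was the least apart at 88.3 against 186 CPM.

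Brush border and digestive genes followed, with 14 of 16 past the filter (20 listed) at least 2-fold lower (background 8.7%) and a median log2 ratio of −2.64. Sis, sucrase-isomaltase, stood at 25.1 against 447 CPM, and Alpi, intestinal alkaline phosphatase, at 19.5 against 284 CPM. Krt20, a keratin of differentiated cells, stood at 7.26 against 123 CPM. Lct, lactase, had 2 UMIs in Olfm4-high cells (0.0332 to 0.990 CPM) and 248 in Olfm4-low cells (21.3 CPM). Alpi, Krt20 and Lct passed the filter through Olfm4-low cells alone. The exceptions were Dpp4, a peptidase, at 68.3 against 61.3 CPM, and Prap1, a proline-rich acidic secreted protein, at 1161 against 2080 CPM.

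Detoxifying enzymes gave 8 lower and 1 higher of 13 past the filter (background 8.7% and 5.03%). Gsta1, a glutathione transferase, stood at 22.6 against 351 CPM, and Aldh1a1, which makes retinoic acid, at 22.3 against 179 CPM. Ces1d, a carboxylesterase, was the higher gene, at 42.4 (37.8 to 47.4) against 15.7 CPM (13.5 to 18.2). It passed the filter through Olfm4-high cells alone. The metallothioneins Mt1 and Mt2 had log2 ratios of 0.44 and 0.40. The antimicrobial Reg lectins were at least 2-fold lower in all 5 members past the filter (background 8.7%), with Reg1 at 40.3 against 580.5 CPM and Reg3b at 29.9 against 284 CPM. MHC class II genes of the same list lay under the filter. Keratins of the epithelium shared this side: Krt8 stood at 1176 against 2894 CPM and Krt19 at 938 against 2573 CPM, while Krt18 stood at 285 against 207 CPM. Anxa2, a membrane-binding annexin, stood at 62.6 against 319 CPM.

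Most transcription factors of intestinal identity were close to equal. Of 14 past the filter, 3 were at least 2-fold lower and none higher (background 8.7% and 5.03%). Cdx2 stood at 146 (138 to 155) against 155 CPM (148 to 162) and Hnf4a at 368 against 327 CPM. The lower ones were Maf (8.53 against 76.4 CPM), Creb3l3, a regulator of lipid genes (6.03 against 60.4 CPM), and Hnf4g (16.7 against 41.8 CPM). All 3 passed the filter through Olfm4-low cells alone. Their direction was fixed by the filter, so the count is a description. Of 11 listed Notch pathway genes, 4 passed the filter, and only the receptor Notch1 was at least 2-fold higher (background 5.03%). Notch1 stood at 49.1 against 15.8 CPM and passed the filter through Olfm4-high cells alone. Its target Hes1 stood at 337 (324 to 351) against 335 CPM (325 to 346). The Notch ligands Dll1 and Dll4 stood at 13.2 against 16.0 CPM and at 2.06 against 3.26 CPM, under the filter.

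The goblet and Paneth sums moved with the few cells rich in secretory products. All 7 goblet genes past the filter were at least 2-fold lower (background 8.7%), and their sum was 354 against 1587 CPM. Tff3, a trefoil peptide, stood at 149 against 688 CPM. In 45 Olfm4-low, 73 intermediate and 17 Olfm4-high cells, secretory products reached 100 UMIs per 10,000. Without those cells the log2 ratio of the goblet sum went from −2.17 to 0.02. For the Paneth list (2300 against 3666 CPM), it went from −0.67 to 0.41, to −1.35 with every cell thinned to 2000 UMIs, and to −2.27 with Olfm4-low cells limited to those without an Olfm4 UMI. Defensin genes are near-identical copies of one another and many of their entries are fractional, so single Defa genes are uncertain. Dclk1, a tuft cell marker, was found in 0 of 517 Olfm4-high cells, which allows a share of up to 0.711% of cells with a UMI by the exact (Clopper-Pearson) 95% interval, and no enteroendocrine or tuft gene passed the filter.

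The secretory-lineage factors Sox4 (120 against 28.6 CPM) and Hes6 (48.7 against 20.7 CPM) were the only listed ones past the filter and both were 2-fold higher (background 5.03%). The remaining lists had few genes past 2-fold. Of the genes of bone morphogenetic protein signalling, 1 of 6 past the filter was 2-fold lower (Smad7, an inhibitor of the pathway, background 8.7%). Of the epidermal growth factor list 1 of 7 was lower (Areg, a ligand, at 10.1 against 35.5 CPM). Areg passed the filter through Olfm4-low cells alone. Of the regenerative list, 1 of 3 was lower (Anxa2), and the sum of that list was 252 against 522 CPM. Of the stress response list, 2 of 12 were lower (Junb and Atf3). None of these 4 lists had a 2-fold higher gene (background 5.03%).

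Over 5 bins of Olfm4, the lists changed at different places. The bins held 787 cells below 2, 261 cells at 2 to 5, 281 cells at 5 to 20, 282 cells at 20 to 50 and 235 cells at 50 and over, with median depths of 9931 to 13540.5 UMIs. The stem list rose over every bin, from 453 to 828, 1526, 2442 and 3845 CPM. The DNA replication list rose from 957 to 1707 and 2395 CPM at 5 to 20, and then stood at 2226 and 1951 CPM. The mitosis list stood at 1881, 2326, 2278, 2308 and 2009 CPM, with the lowest values in the end bins. The growth list reached 3203 CPM at 5 to 20 and stayed near it, at 3399 and 3302 CPM. The enterocyte lipid list dropped from 6451 to 2936 CPM within the first step, then to 1621, 1291 and 928 CPM.

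**Figure D3:**
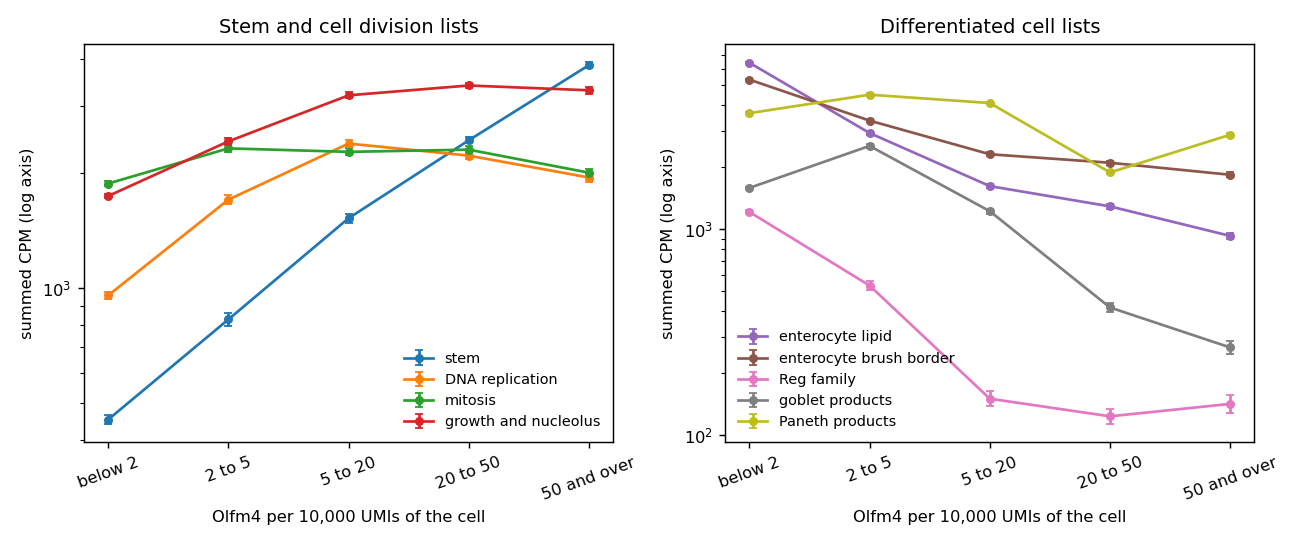
Summed CPM of each gene list (y, log axis) in 5 bins of Olfm4 per 10,000 UMIs (x), non-irradiated crypt library, with exact Poisson 95% intervals. The stem list rises over all bins (453 to 3845 CPM), DNA replication is highest at 5 to 20 (2395 CPM), and the enterocyte lipid list falls from 6451 to 928 CPM.

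Of the 328 genes at least 2-fold higher, 181 (55.2%) rose over every bin, and of the 567 lower genes, 401 (70.7%) fell over every bin, beside 7.73 and 16.4% of all genes past the filter. The contrast that chose these genes is part of the gradient, so these shares describe its shape only. Lgr5 was highest at the upper end, with 1.32, 1.24, 4.32, 21.6 and 82.5 CPM. Ascl2 began earlier, with 1.72, 5.08, 12.9, 44.1 and 77.2 CPM. Slc12a2 rose at each bin, with 63.8, 154, 384, 675 and 1019 CPM. Axin2 stood at 15.7, 28.6, 63.0, 133 and 203 CPM. Rgmb, a co-receptor for bone morphogenetic proteins, was nearly flat up to 20 and then rose, with 24.5, 28.3, 32.2, 70.3 and 156 CPM. Lgr5 and Rgmb thus separate the last bins, and Slc12a2 and Axin2 the whole range.

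On the enterocyte side, Fabp1 stood at 2470, 873, 364, 215 and 115 CPM. Sis stood at 447, 196, 61.0, 33.8 and 12.9 CPM, and Alpi at 284, 131, 35.3, 25.3 and 11.2 CPM. Cdkn2b kept the same shape with 76.0, 40.4, 7.00, 4.69 and 1.65 CPM, as did Maf with 76.4, 41.9, 14.9, 9.61 and 7.02 CPM. Each of these genes was already several times lower at 5 to 20 than below 2. Anxa2 fell more evenly, with 319, 224, 133, 76.4 and 43.2 CPM.

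**Figure D4:**
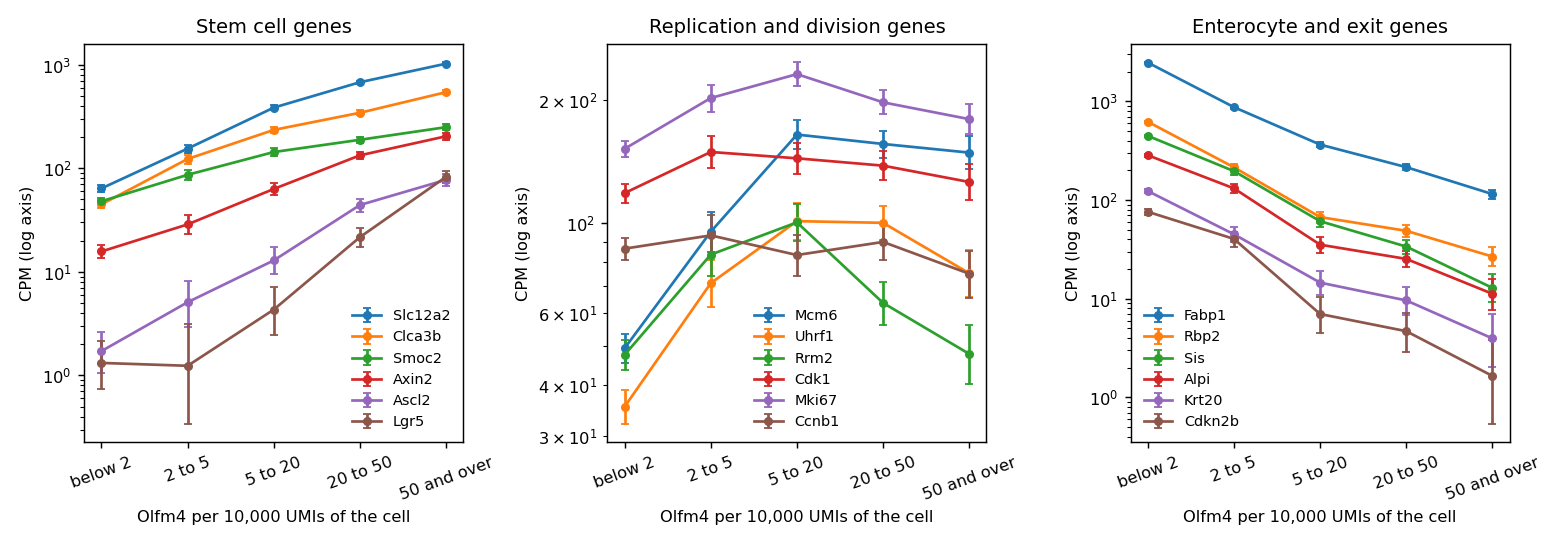
CPM of single genes (y, log axis) in 5 bins of Olfm4 per 10,000 UMIs (x), non-irradiated crypt library, with exact Poisson 95% intervals. Lgr5 rises from 1.32 to 82.5 CPM mostly in the upper bins, Mcm6 levels off from 5 to 20 onward (165, 156 and 149 CPM), and Fabp1 falls from 2470 to 115 CPM.

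A set of 46 genes (0.706% of those past the filter) was at least 1.5-fold higher in an inner bin than in both end bins. Rrm2 led it, with 47.5, 83.6, 100.3, 63.6 and 47.7 CPM. E2f8, a repressor of the E2F family, stood at 27.0, 48.1, 55.7, 35.4 and 33.7 CPM, and Dck, deoxycytidine kinase, at 24.8, 38.2, 51.9, 28.6 and 26.7 CPM. Others were goblet or Paneth genes with a top at 2 to 5, such as Tff3 (688, 1254, 542, 197 and 81.9 CPM). The 73 cells rich in secretory products were counted over all 542 intermediate cells. How many of them lay at 2 to 5 was not counted. Atoh1, the transcription factor of secretory fate, was low throughout but also highest at 2 to 5, at 8.32 CPM beside 2.83 CPM below 2. These genes were singled out after their values were seen.

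Within the Olfm4-high class, stem and mitosis lists were set side by side. The 130 cells with the most mitosis UMIs (median 41.4 per 10,000) had a stem list of 3177 CPM (3100 to 3254), and the 130 cells with the fewest (1.87 per 10,000) had 3677 CPM (3578 to 3778). The mitotic cells were deeper (median 15275 against 10255 UMIs) and held less of the DNA replication list (1317 against 2006 CPM). Lgr5 stood at 55.4 against 83.8 CPM and Olfm4 at 4973 against 6096 CPM. Ascl2 (70.0 against 66.6 CPM) and Axin2 (177 against 191 CPM) had intervals that overlap. The intervals leave out the spread between cells. The stem list was therefore several times the Olfm4-low level of 453 CPM in both sets of cells.

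In the irradiated crypts a smaller share of cells was Olfm4-high, and the contrast was smaller for the stem list but not for every list. Olfm4-high cells were 75 of 719 (10.4%, 8.29 to 12.9%) and 22 of 699 (3.15%, 1.98 to 4.73%), and these were deeper than the Olfm4-low cells beside them (median 24472 against 12842 and 20836.5 against 12422 UMIs) with fewer mt- UMIs (0.863 against 2.38% and 1.29 against 3.06%). The part of depth in these values was not tested. The stem list stood at 3029 and 3025 CPM in irradiated Olfm4-high cells, next to 3025 CPM without irradiation. In Olfm4-low cells it stood at 1728 and 1725 CPM, next to 453 CPM. The like sums of Olfm4-high cells hide single genes that lay apart in both directions. In irradiated Olfm4-high cells Lgr5 stood at 21.1 and 15.0 CPM, next to 46.9, and Gkn3 at 34.4 and 27.0 CPM, next to 181. Igfbp4 stood at 213 and 269 CPM, next to 60.7, and Msi1 at 59.2 and 40.4 CPM, next to 26.0. The log2 ratio of the enterocyte lipid sum was −1.66 and −2.62, next to −2.50, and that of the goblet sum −3.15 and −2.03, next to −2.17. With 1 non-irradiated library these differences have no test. At least 2-fold higher were 1.76 and 4.72% of genes past the filter in the irradiated libraries, and lower 6.6 and 11.5%. Of 283 genes that were 2-fold higher without irradiation and passed the filter in all 3 crypt libraries, 230 were higher in both irradiated libraries and 32 by 2-fold in both. For 371 lower genes these counts were 336 and 149. Beside them, 42.8% of all genes past the filter in all 3 were higher in both irradiated libraries and 34.8% lower in both. The share of all genes at least 2-fold apart in both was not counted, so 32 and 149 have no background.

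The contrast was then tested in the 6 libraries that had not chosen the 2-fold genes of the non-irradiated crypt. These were the irradiated crypts and the organoids, with cells chosen there by the same Olfm4 limits. The gene lists were chosen with earlier results of these data known, so list counts below may not be independent of that choice. The edgeR quasi-likelihood test with the library as block (Benjamini-Hochberg adjusted p under 0.05) called 3489 of 15200 genes higher (23%) and 4892 lower (32.2%), and with at least 2-fold as well, 9.58 and 16.2%. Its p-values measure the spread between these 6 libraries, and the organoid libraries among them may share a culture. Of the 328 genes that were 2-fold higher in the non-irradiated crypt, 301 were among the genes called higher and 4 among those called lower. Of the 567 lower genes, 564 were tested, 544 were called lower and 3 higher. Among all genes past the filter in the non-irradiated library, 27.7% were called higher and 39.6% lower.

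The 4 genes called the other way after being higher in the non-irradiated crypt were Ces1d, Clca4b, Mylk3 and Sord, and the 3 after being lower were Defa2, Defa20 and Ier3. They are named because they are few, after their values were seen. Ces1d was lower in 6 of 6 libraries (edgeR log2 ratio −3.24, adjusted p = 4.47e-06). Clca4b, a calcium-activated chloride channel regulator, stood at 115 against 55.4 CPM in the non-irradiated crypt and was lower in 6 of 6 libraries (−2.66, edgeR adjusted p = 9.00e-05). Ier3, an immediate early gene, stood at 25.6 against 52.3 CPM there and was higher in 6 of 6 (0.88, edgeR adjusted p = 0.00307). Whether the non-irradiated crypt differs from the other libraries in these genes was not tested.

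The stem list was higher in 24 of 25 genes by edgeR (background 23%), with a median log2 ratio of 2.27. Lgr5 stood at 21.1 against 7.05 and at 15.0 against 7.15 CPM in the irradiated crypts, and in the organoids at 116 against 2.69, 70.7 against 2.17, 100.2 against 1.99 and 141 against 4.08 CPM at 0, 6, 15 and 24 h. It was higher in 6 of 6 libraries (log2 ratio 4.04, SE 0.56, edgeR adjusted p = 0.000455), and the irradiated crypts gave the smaller ratios. In the irradiated Olfm4-high cells (75 and 22 cells), only 43.5 and 6.69 Lgr5 UMIs were counted. Smoc2 was higher in 6 of 6 libraries, with 152 against 34.8 and 155 against 29.8 CPM in the irradiated crypts and 230 to 433 against 24.5 to 76.4 CPM in the organoids (2.45, SE 0.19, edgeR adjusted p = 1.72e-05). Slc12a2 stood at 617 against 348 and at 552 against 378 CPM in the irradiated crypts, closer than in the non-irradiated crypt or the organoids, and was 2.05 higher on the log2 scale (SE 0.37, edgeR adjusted p = 0.00159). Prom1 was the gene not called, at −0.03 (edgeR adjusted p = 0.907).

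Replication genes were higher in these libraries too, and mitotic genes differed more in the organoids than in the crypts. All 24 DNA replication genes were called higher (edgeR, background 23%, median log2 ratio 1.72). Mcm6 stood at 189 against 89.7 and 209 against 78.4 CPM in the irradiated crypts and at 160 against 32.6, 149.8 against 36.1, 111 against 21.9 and 163 against 33.9 CPM in the organoids (log2 ratio 1.65, SE 0.14, edgeR adjusted p = 3.00e-05). The mitosis list had 19 of 20 genes called higher, Cenpe being the other, with a median of 1.36. Library by library, however, the log2 ratio of its sum was 0.22 in the non-irradiated crypt, 0.18 and 0.14 in the irradiated crypts, and 1.86, 1.72, 2.83 and 2.53 in the organoids at 0, 6, 15 and 24 h. Mki67 was lower in Olfm4-high cells of both irradiated crypts (147 against 163 and 121 against 136 CPM) and higher in those of the 4 organoid libraries (143 to 242 against 25.9 to 75.2 CPM), with an edgeR adjusted p of 0.0206 that was 0.0567 to 0.0601 when 1 organoid library was left out. Crypt cells were sorted for Ki67 and organoid cells were not, so the sort and the source cannot be told apart.

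**Figure D5:**
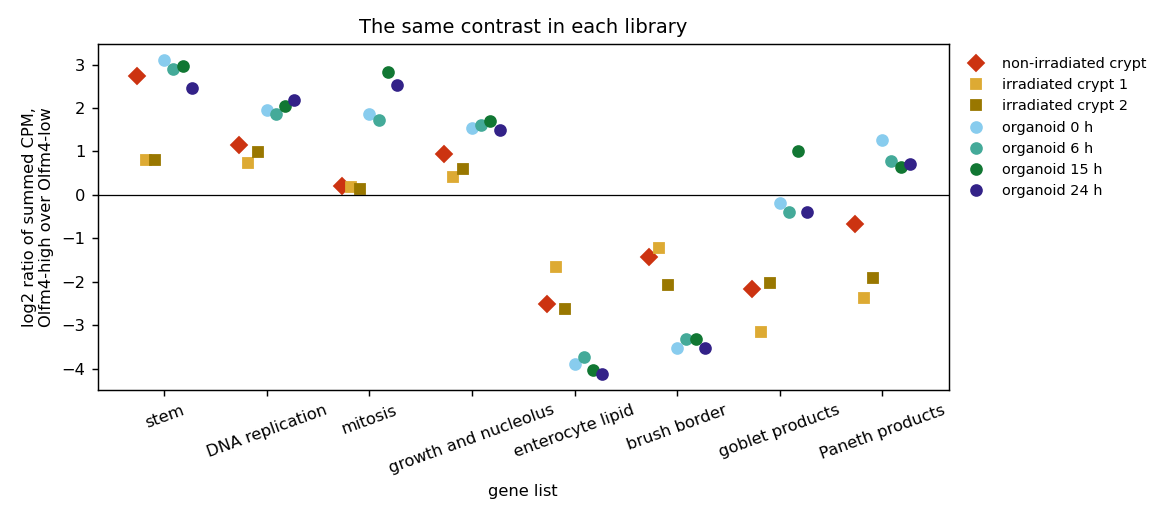
Log2 ratio of summed CPM in Olfm4-high over Olfm4-low cells (y) for each gene list (x), 1 point per library, by colour and shape. The mitosis list lies between 0.14 and 0.22 in the 3 crypt libraries and between 1.72 and 2.83 in the 4 organoid libraries, and the enterocyte lipid list is below 0 in all 7.

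Enterocyte genes were lower in these libraries too. All 13 lipid genes (median log2 ratio −3.91) and 19 of 20 brush border genes (−4.10) were called lower by edgeR (background 32.2%), Dpp4 being the other. Sis stood at 1.45 against 36.2 and 4.49 against 126 CPM in the irradiated crypts, and at 202 against 4106, 194 against 2939, 125 against 2192 and 106 against 2166 CPM in the organoids (−4.58, SE 0.11, edgeR adjusted p = 1.07e-07). Levels were far higher in the organoids than in the crypts, in both classes. In the irradiated Olfm4-high cells, only 3 and 2 Sis UMIs were counted. Fabp1 was lower in 6 of 6 libraries as well (−4.58, SE 0.28, edgeR adjusted p = 4.69e-06). Of the regulators, Creb3l3 (−4.54, edgeR adjusted p = 1.14e-07), Maf (−3.13, edgeR adjusted p = 1.44e-05) and Hnf4g (−2.73, edgeR adjusted p = 1.22e-05) fell, while Cdx1, Cdx2 and Hnf4a were not called. Cdkn2b fell by 4.04 on the log2 scale (SE 0.15, edgeR adjusted p = 3.18e-07) and Cdkn1a by 2.24 (edgeR adjusted p = 3.68e-05).

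Growth genes rose in 11 of 12 members by edgeR (background 23%, median 0.97), with Npm1 higher in 6 of 6 libraries (1.17, SE 0.14, edgeR adjusted p = 0.000211) and Odc1 not called. Notch pathway genes rose in 7 of 10 tested, Notch1 (0.88, edgeR adjusted p = 0.00346) and Hes1 (0.98, edgeR adjusted p = 0.00916) included, and Jag1 fell. In the irradiated crypts Hes1 stood at 339 against 270.5 and at 308 against 354 CPM, and in the organoids at 380 against 101, 381 against 130.4, 527 against 141 and 569 against 155 CPM. Of the regenerative list 11 of 15 genes were called lower and 2 higher (edgeR, background 32.2% and 23%). Goblet genes were called lower in 4 of 10 (Muc2, Fcgbp, Clca1 and Zg16), near the background of 32.2%, and of 10 Paneth genes 1 rose, Mptx2, an antibacterial pentraxin at no more than 2.25 CPM in these libraries (1.52, edgeR adjusted p = 0.0294, and 0.0606 and 0.0967 without the organoids at 0 h and 6 h). The log2 ratio of the Paneth sum was −2.38 and −1.90 in the irradiated crypts and 0.64 to 1.27 in the organoids, beside −0.67 in the non-irradiated crypt. Muc2 lost its call when any 1 library but the organoids at 15 h was left out (edgeR adjusted p = 0.0434 with all, 0.0535 to 0.14 without 1).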

How the data were processed

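Single-cell RNA was measured with PIPseq in 7 libraries. The deposited matrices hold expected counts of UMIs per gene and cell, which need not be whole (14.4% of the UMIs of the non-irradiated library lie in fractional entries). The submitters' processing notes name STAR 2.7.10a and STARsolo. Of the genome builds listed there, none is tied to these matrices. The authors' tables of FPKM and lists of ATAC peaks were not used.

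Cells with at least 500 UMIs and at most 20% mt- UMIs were kept and classed by Olfm4. UMIs were summed per class and scaled to CPM, with exact Poisson 95% intervals. Genes with at least 20 CPM in a class were compared, sums under 3 UMIs were set to 3, and the 15 largest and 15 smallest ratios and the listed genes were named. Intervals cover counting error only. Class sums of the 6 other libraries, rounded to whole numbers, were tested with edgeR 4.0.16 (quasi-likelihood, TMM, robust, filterByExpr, library as block, two-sided, R 4.3.3). In simulated data, 200 of 15200 genes were changed by the same fold in every library. There edgeR recovered 72% of 2-fold and 95% of 4-fold changes, with 4.57% false among its calls. The real libraries gave far more calls and differ in tissue and treatment, so the share of false calls among them was not measured. Alternatives were DESeq2 1.42.0, other scalings, filters and limits, and leaving out each library. Members, gene lists and tests were chosen with earlier results of these data known, and the 9 promoter motifs and the 2-fold edgeR count after values were seen.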

Additional observations from a re-analysis of the deposited data

Results flagged for a closer look

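Of 178 listed genes past the filter in all 3 crypt libraries, 4 had the opposite direction in the non-irradiated crypt and in both irradiated crypts, each by at least 0.5 on the log2 scale. Whether the libraries differ in them was not tested, since the non-irradiated condition has 1 library. Ccnd1, a D-type cyclin, had a log2 ratio of Olfm4-high over Olfm4-low cells of 0.80 without irradiation (149 against 85.1 CPM) and of −0.67 and −0.74 after it (278 against 442 and 308 against 514 CPM). Ccnd2, its relative, had 0.59 (569.6 against 379 CPM), then −1.09 and −1.02 (685 against 1459 and 779 against 1579 CPM). Egfr, the epidermal growth factor receptor, had 0.85 (25.5 against 14.2 CPM), then −0.99 and −0.95 (15.6 against 31.2 and 18.0 against 34.7 CPM). Id3, a target of bone morphogenetic proteins, ran the other way with −0.55 (165 against 241.5 CPM), then 0.60 and 0.74 (141 against 92.8 and 148 against 88.6 CPM). For both cyclins, the highest values of all were in irradiated Olfm4-low cells.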

How the results depend on the processing

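In the non-irradiated crypt, 572 genes were higher with mt- and ribosomal protein genes left out of the total, 725 higher and 876 lower with a filter of 5 CPM, and 62 higher and 189 lower with one of 100 CPM. The share of Olfm4-high cells was 36.5% at a limit of 10 per 10,000 and 12.7% at 50. Without cells rich in secretory products the log2 ratio turned to 0.025 for the goblet list, 0.46 for Fcgbp, 0.32 for Agr2 and 0.66 for Defa22. The stem list kept a log2 ratio of 2.5 to 3.09 and the mitosis list one of 0.09 to 0.53 under every alternative run. With edgeR, leaving out 1 library gave 2776 to 4596 higher and 3580 to 4666 lower genes, no library block gave 1894 and 2287, and the organoids alone 5327 and 5057. The organoids alone also turned Prom1 (0.36), Defa17 (0.84), Defa21 (1.00), Defa24 (0.64), Defa30 (0.60), Ang4 (0.69), Itln1 (0.56) and Krt18 (0.50). Of 3555 alternative values for named genes, 3304 kept their side of the threshold, 175 lost a call and 68 gained one. In 8 the direction turned with a call in at least 1 of the settings. A change of sign without a call in either setting was counted among the 3304. No paired analysis was possible because the non-irradiated condition has 1 library; the edgeR fit pairs the classes within each library. The cause of these changes was not tested. Depth limits genes below about 20 CPM, such as Atoh1.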
